A study of Mus musculus with 16 samples.

Results

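Paired receptors are families of surface proteins on myeloid cells in which members with closely related outer parts pass opposite signals inward. An inhibitory member carries immunoreceptor tyrosine-based inhibitory motifs (ITIMs) in its cytoplasmic tail, which recruit the phosphatases SHP-1 and SHP-2 when phosphorylated. An activating member has a short tail and, in most cases, a charged residue in the membrane that binds the adaptors DAP12 or FcR gamma, whose own motifs recruit the kinase Syk. In neutrophils such receptors set the threshold for adhesion, degranulation and the oxidative burst. The 10 genes described here were taken by symbol from the 54532 gene identifiers of the deposited table and cover 4 families. These are the immunoglobulin-like receptors Pirb, Lilrb4a and Lilr4b, the sialic acid binding lectin Siglece, the lipid-binding CD300 family (Cd300a, Cd300lb, Cd300ld and Cd300lf), and the PILR receptors Pilra and Pilrb1. All 10 were found and all 10 were among the 9851 genes tested.

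The libraries came from liver neutrophils of 8 mixed bone marrow chimeras on the C57BL/6 strain, numbered 2 to 9. The hosts were irradiated wild-type mice reconstituted for 8 weeks with WT marrow marked by CD45.1 and Ifngr1-/- marrow marked by CD45.2, at 50% each. They carried MC38 flank tumours (a mouse colon carcinoma line) and were given a CD40 agonist (aCD40), an antibody that stimulates the receptor CD40. Neutrophils were sorted 2 days later by neutrophil markers and CD45 type, so that each mouse gave 1 WT library and 1 IFNgR1-KO library (Ifngr1_KO), 8 of each. IFNgR1 is the ligand-binding chain of the interferon gamma receptor, and both groups shared host, tumour and treatment. The comparison asks which transcripts depended on the cell's own receptor. Genotype cannot be told apart from CD45 type, marrow donor or sort gate, which differed along with it. No group lacked the tumour or the antibody, and no age or sex of the mice was used here.

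The 16 libraries held 12482326 to 21725277 estimated counts. Levels are given as CPM, counts scaled to library size with TMM factors. In WT, Ifngr1 itself stood at 305 ± 46.6 CPM, and in Ifngr1_KO at 83.9 ± 29.5 CPM (SD, n = 8), lower in 8 of 8 mice. Mitochondrially encoded mRNAs took 0.595 ± 0.272% of WT and 1.39 ± 0.656% of Ifngr1_KO counts (exact two-sided sign-flip permutation test over 8 mice, p = 0.0313, adjusted p = 0.104 over 10 library measures). The Ifngr1_KO library of mouse 7 stood apart, with the highest mitochondrial share of all, 2.503%, and values without that mouse are given beside the results that move with it. The summed level of 13 neutrophil markers was 33680 to 59153 CPM in WT and 28373 to 87455 CPM in Ifngr1_KO, with S100a8 at 7706 CPM or more and Csf3r at 1311 CPM or more in every library. Mpo and Elane, of the early granule stages, had medians of 0.211 and 0.885 CPM, and Mpo was at 0 in 7 libraries. Vsig4, Epx and Ms4a2, which mark Kupffer cells, eosinophils and mast cells, were at 0 in all 16. Other genes of the same marker lists were detected. Csf1r had a median of 1420.5 CPM, Adgre1 of 47.8, C1qb of 13.4, Siglecf of 10.4, Kit of 5.33 and Ear2 of 4.15 CPM. The zeros alone do not show that these cell types were absent.

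The members were sorted beforehand into 6 inhibitory genes and 4 listed as activating or without an ITIM. The coding sequences describe that sorting and do not test it. In the GENCODE vM21 transcripts (build mm10), the longest complete coding sequence of each gene was used. Its most hydrophobic run of 19 codons past the first 100 codons was taken as the membrane-spanning part. Codons after that run were then searched for an ITIM, read as isoleucine, valine, leucine or serine, any residue, tyrosine, any 2 residues, and leucine, valine or isoleucine. All 6 inhibitory genes had at least 1 match and all 4 others had none. Pirb had 3, Lilrb4a, Cd300a and Cd300lf had 2 each, and Siglece and Pilra had 1 each. The codons are shown because these are the sites on which the 2 lists differ, 5′ to 3′ with the tyrosine codon in capitals.
Pirb, first match: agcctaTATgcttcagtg
Pirb, second match: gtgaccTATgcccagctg
Pirb, last match: agtgtaTATgctactctg
Lilrb4a, first match: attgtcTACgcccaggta
Lilrb4a, second match: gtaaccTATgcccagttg
Siglece: atacatTATgcgaccctc
Cd300a, first match: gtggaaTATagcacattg
Cd300a, second match: cttcacTATtcatccgtg
Cd300lf, first match: ctctgtTATgcagacctg
Cd300lf, second match: gtttcaTATgccgctctg
Pilra: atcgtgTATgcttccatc

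Among the genes without a match, Cd300lb, Cd300ld and Pilrb1 each had 1 charged codon within the hydrophobic run, whereas Lilr4b, like the 6 inhibitory genes, had none. The tails after the run were also shorter in these 4 genes, at 9 codons in Pilrb1, 24 in Cd300ld, 33 in Cd300lb and 42 in Lilr4b, against 74 in Lilrb4a to 178 in Pirb.

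**Figure D1:**
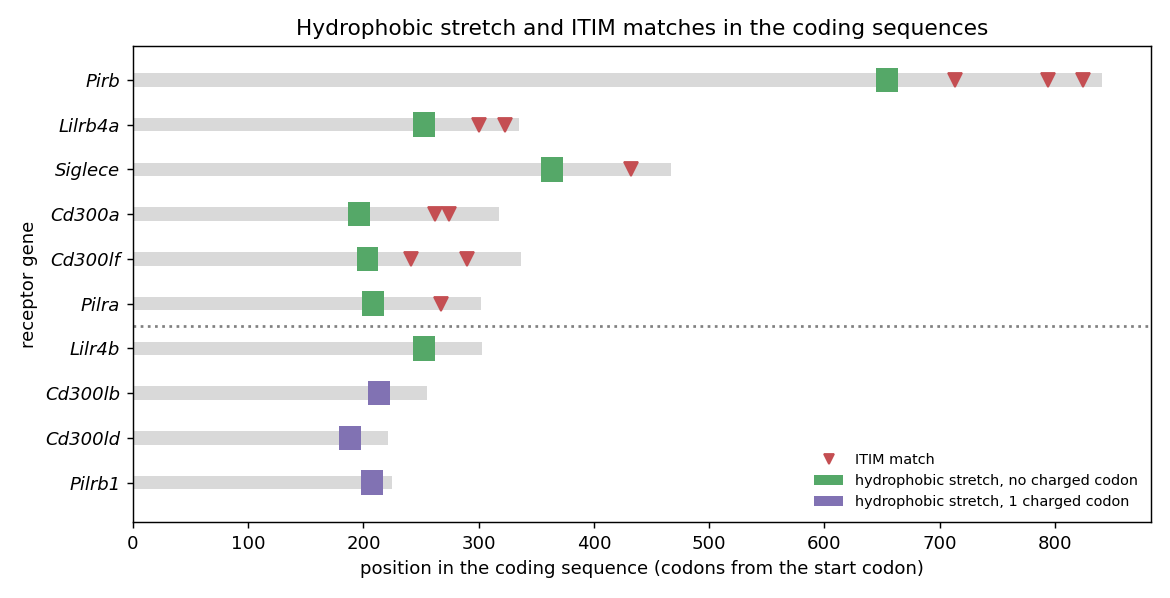
Grey bars give the coding sequence of each receptor gene, in codons from the start codon. Colour marks the most hydrophobic run of 19 codons past the first 100 (green without, purple with 1 charged codon), and red triangles the ITIM matches after it. The 6 inhibitory genes above the dotted line have 1 to 3 matches, and the 4 genes below it have none.

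Several of these genes have near copies, which bears on how reads were divided between them. Lilrb4a and Lilr4b, side by side on chromosome 10 (51490956 to 51496611 and 51480632 to 51486703 in mm10), were identical at 96.0% of 907 aligned coding bases, and 39.1% of the 31-base words in Lilrb4a transcripts also occur in Lilr4b. Pilrb1 (chromosome 5, 137852147 to 137858106) and its copy Pilrb2 were identical at 93.5% of 675 coding bases, and Pirb (chromosome 7, 3711409 to 3720391) and Pira2 at 95.4% of 2039. Cd300lf and Cd300ld, both on chromosome 11, were identical at 84.7% and Pilra and Pilrb1 at 88.1%. Of the Siglece 31-base words 1.14% occur in another gene, and none of Cd300lb. The first 90 coding bases of 2 of these close pairs are shown, with differing bases in capitals.
Lilrb4a: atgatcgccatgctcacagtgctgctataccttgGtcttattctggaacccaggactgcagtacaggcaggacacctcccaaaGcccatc
Lilr4b: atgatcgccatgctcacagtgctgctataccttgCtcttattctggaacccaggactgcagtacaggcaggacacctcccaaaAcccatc
Pilrb1: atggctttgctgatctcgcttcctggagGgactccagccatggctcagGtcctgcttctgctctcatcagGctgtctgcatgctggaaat
Pilrb2: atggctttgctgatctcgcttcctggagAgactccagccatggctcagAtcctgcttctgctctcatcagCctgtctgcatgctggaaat

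Only 2 of 90 bases differ in the first pair and 3 of 90 in the second. The division of counts within Lilrb4a and Lilr4b, within Pilrb1 and Pilrb2, and within Pirb and the Pira genes is therefore uncertain, and summed counts are given beside the single ones.

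All 10 receptors were well expressed. Per kilobase of annotated exon, which allows genes to be compared but also counts exons of rare transcript forms, the WT level ran from 142 ± 29.2 CPM per kb for Lilr4b to 494 ± 58.1 for Siglece (SD, n = 8). Siglece ranked 171 among the 9851 genes tested on this scale and Lilr4b 440. Between them came Pilra at 362 ± 40.8, Cd300lf at 276 ± 33.3, Pilrb1 at 257 ± 42.4, Lilrb4a at 248 ± 46.3, Pirb at 245 ± 25.9, Cd300a at 237 ± 33.9, Cd300ld at 144 ± 27.8 and Cd300lb at 143 ± 29.9 CPM per kb. Across the 8 mice Siglece overlapped Pilra alone. The 5 genes from Cd300lf to Cd300a in this order overlapped one another, as did Cd300ld, Cd300lb and Lilr4b.

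None of the 10 receptors passed the test between genotypes. At an adjusted p under 0.05 (edgeR quasi-likelihood test blocked on the mouse, Benjamini-Hochberg over 9851 genes), 0 were lower and 0 higher in Ifngr1_KO, against a background of 2.32% of all genes tested lower, 0.477% higher and 2.8% in either direction. At an unadjusted p under 0.05, 4 of 10 were lower (Pilra, Pilrb1, Siglece and Cd300a; background 8.57%) and 0 were higher (7.69%). The log2 fold change was below 0 for 7 of 10 (background 46.8%), with a median of -0.26 against 0.046 over all genes. Without mouse 7 it was still below 0 for 7 of 10, with a median of -0.14 against 0.050 over all genes. A median below 0 was not particular to the receptors. The 12 tested neutrophil markers had a median of -0.32, with 9 below 0. Without mouse 7 their median was -0.27, with 10 below 0. In at least 7 of 8 mice, 5 of 10 were lower (Siglece, Cd300a, Cd300lf, Pilra and Pilrb1; background 11.4%) and 0 higher (background 10.2%), and 0 had groups that did not overlap (background 1.48% with Ifngr1_KO lower, 0.173% higher). DESeq2 and limma-voom each called 2 members lower, Pilra and Pilrb1, and called 5.81% and 4.31% of all genes tested lower.

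**Figure D2:**
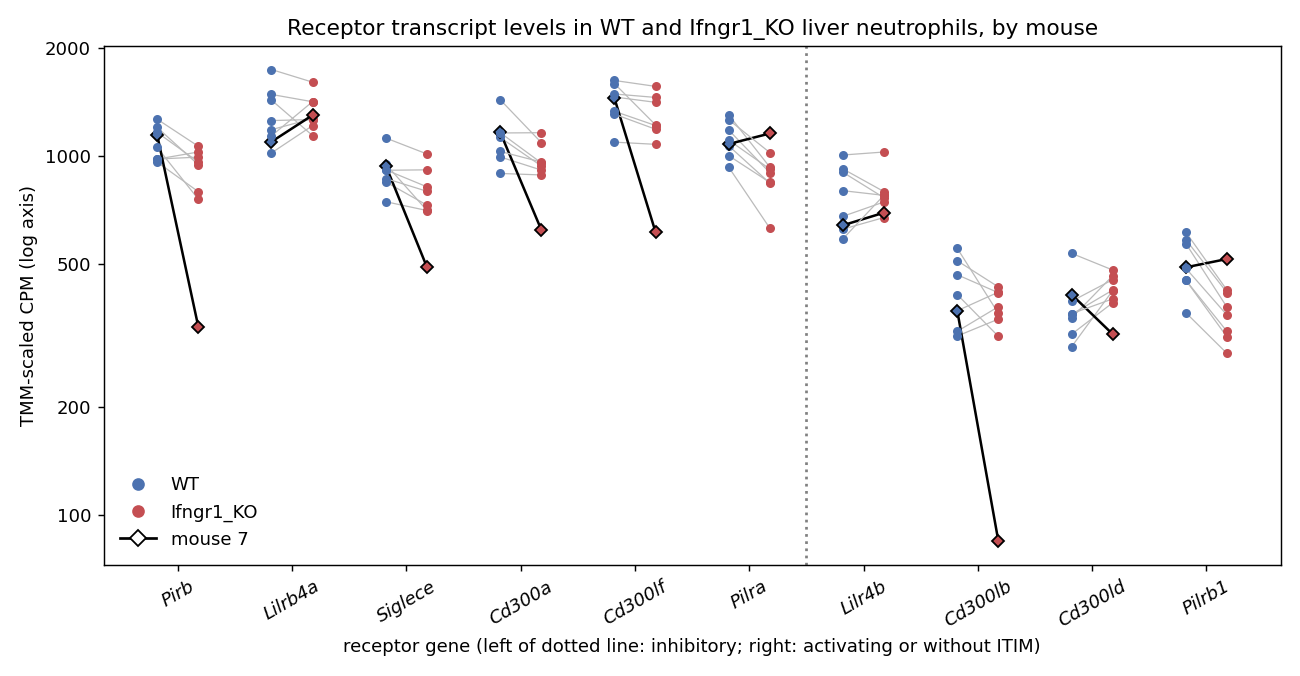
TMM-scaled CPM (log axis) of each receptor gene in the 8 WT (blue) and 8 Ifngr1_KO (red) libraries, with lines joining the 2 libraries of a mouse and mouse 7 drawn as diamonds with a black line. The groups overlap for every gene, and the Ifngr1_KO library of mouse 7 lies far below the others for Pirb (335 CPM) and Cd300lb (84.5 CPM).

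The PILR receptors came closest to the threshold. Pilra carries the ITIM and Pilrb1 is its DAP12-coupled partner, and both recognise sialylated O-glycans on a small set of proteins. Pilrb1 ran from 367 to 615 CPM in WT (median 489) and from 282 to 517 CPM in Ifngr1_KO (median 370.3). Its log2 fold change was -0.42 (SE 0.10, 95% interval -0.64 to -0.20), with an edgeR adjusted p of 0.0504, and it was lower in Ifngr1_KO in 7 of 8 mice. The exception was mouse 7, whose Ifngr1_KO library held the highest Ifngr1_KO level. Without that mouse Pilrb1 was at -0.49 on the same scale (SE 0.06, adjusted p = 0.00110), a call not made at 8 mice. With any other 1 mouse left out it was not called either (edgeR adjusted p = 0.0916 to 0.141).

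Pilra, the ITIM-bearing partner, ran from 933 to 1304 CPM in WT (median 1096) and from 630.5 to 1158 CPM in Ifngr1_KO (median 911). The log2 fold change was -0.31 (SE 0.09, 95% interval -0.52 to -0.11; edgeR adjusted p = 0.113), and Pilra too was lower in every mouse but mouse 7. Without mouse 7 it was -0.37 (SE 0.06, adjusted p = 0.00713), and the highest of the other Ifngr1_KO libraries, at 1024 CPM, still lay above the lowest WT library. With any other 1 mouse left out Pilra was not called (edgeR adjusted p = 0.165 to 0.279). Pilrb2, the near copy of Pilrb1 and no member, had -0.38 (SE 0.09, adjusted p = 0.0619) and was lower in 8 of 8 mice. With Pilrb1 and Pilrb2 summed before the fit, the value was -0.40 (SE 0.09) and passed at an adjusted p of 0.0400. Without mouse 7, 2 of 10 members were called lower and 0 higher, against 3.34% and 0.78% of 9997 genes tested.

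The promoters of the PILR genes shared one element. The RefSeq promoters (GRCm38.p6, 250 bases before to 50 after the start) held 9 of the 10 members. Lilrb4a, the near copy of Lilr4b, had none there and was not searched. An ISRE-like motif (GAAA, any 2 bases, GAAA) was found, searching both strands, in Pilra and Pilrb1. Among the near copies and neighbours searched it was also in Pilrb2 and, 11 bases after the start, in Cd300c2. Over all 32851 promoters 3.44% held it. The interferon gamma activation site TTCNNNGAA, which reads the same on both strands, was found in Lilr4b alone among the 9 members searched, against 8.30% of all promoters. The windows of Pilra and Pilrb1 are shown because these were the members nearest to the threshold, with the motif in capitals. That of Lilr4b is shown as the only activation site found among the members searched, though Lilr4b was far from the threshold (edgeR adjusted p = 0.877).
Pilra, chr5:137836422-137836481, minus strand: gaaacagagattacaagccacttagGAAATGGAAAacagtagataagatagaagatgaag
Pilrb1, chr5:137858247-137858299, minus strand: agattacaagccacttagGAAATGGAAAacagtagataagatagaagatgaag
Lilr4b, chr10:51480483-51480541, plus strand: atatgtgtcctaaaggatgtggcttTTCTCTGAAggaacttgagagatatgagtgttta

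The Pilrb1 window repeats that of Pilra over its whole length, and the Pilrb2 window is identical to that of Pilrb1. The PILR matches are thus the same stretch of sequence and do not count as separate finds beside the share of all promoters. The motif begins 178 bases before the start of Pilra, 232 before that of Pilrb1 and 104 before that of Lilr4b. A match describes these letters only and does not show that a factor binds there.

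Pirb, a receptor for MHC class I molecules that restrains neutrophil and macrophage activation, ran from 963 to 1269 CPM in WT (median 1102) and from 335 to 1066 CPM in Ifngr1_KO (median 955). It was lower in Ifngr1_KO in 6 of 8 mice. The log2 fold change was -0.40 (SE 0.18, 95% interval -0.81 to 0.0024; edgeR adjusted p = 0.308). Much of this rested on the Ifngr1_KO library of mouse 7, which held 29.2% of the WT level of its mouse. Without mouse 7 the value was -0.22 (SE 0.08, adjusted p = 0.177), and the lowest Ifngr1_KO library was then at 759 CPM. The activating near copy Pira2, no member, had -0.31 (SE 0.23) with and -0.08 (SE 0.09) without mouse 7. With Pirb and Pira2 summed before the fit, the value was -0.38 (SE 0.19, edgeR adjusted p = 0.365). Gm14548 of the same locus shares more 31-base words with Pirb than any other gene, 23.7%. With Lilra6, Gm14548 and Gm15922 also in the sum, an unplanned setting, the value was -0.30 (SE 0.17, edgeR adjusted p = 0.419).

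Lilrb4a and Lilr4b, formerly gp49B and gp49A, were nearly level between genotypes. Lilrb4a, the ITIM-bearing form, ran from 1022 to 1745 CPM in WT (median 1222) and from 1142 to 1609 CPM in Ifngr1_KO (median 1288). Its log2 fold change was 0.05 (SE 0.10; edgeR adjusted p = 0.828), with an interval of -0.16 to 0.26. Lilr4b, which lacks the motif, had a median of 741 CPM in WT and 772 CPM in Ifngr1_KO, a log2 fold change of 0.04 (SE 0.09) and an interval of -0.17 to 0.25. Both were higher in Ifngr1_KO in 5 of 8 mice, and mouse 9 had the highest level of each in both genotypes. Summed before the fit, the pair had 0.05 (SE 0.09, edgeR adjusted p = 0.839). Both genes lie on the chromosome of Ifngr1, 31.9 Mb away.

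Siglece (chromosome 7, 43651070 to 43660161), a lectin that binds sialic acids on the cell's own and neighbouring surfaces and damps neutrophil activation, ran from 747 to 1124 CPM in WT (median 916) and from 491 to 1015 CPM in Ifngr1_KO (median 765). It was lower in 7 of 8 mice, and the groups overlapped. The log2 fold change was -0.26 (SE 0.11, 95% interval -0.51 to -0.0069; edgeR adjusted p = 0.2897), or -0.16 (SE 0.06, adjusted p = 0.231) without mouse 7. With the mitochondrial share as a covariate it was -0.047 (SE 0.14).

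The 4 CD300 genes lie on chromosome 11, from Cd300a (114890041 to 114904654) to Cd300lf (115116214 to 115133992), and their values did not share a sign. Cd300a, an inhibitory receptor for phosphatidylserine and phosphatidylethanolamine, ran from 896 to 1439 CPM in WT (median 1145) and from 624.6 to 1163 CPM in Ifngr1_KO (median 949.6), with a log2 fold change of -0.26 (SE 0.11; edgeR adjusted p = 0.282). The lowest value was that of mouse 7, without which it was -0.17 (SE 0.07, adjusted p = 0.231), and with the mitochondrial covariate it was -0.051 (SE 0.14). Cd300lf, an ITIM-bearing receptor for ceramide and phosphatidylserine, ran from 1095 to 1627 CPM in WT (median 1458) and from 615 to 1566 CPM in Ifngr1_KO (median 1221). It was the 1 member that was lower in 8 of 8 mice, yet its log2 fold change of -0.25 (SE 0.14; adjusted p = 0.401) fell to -0.12 (SE 0.06) without mouse 7.

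Of the activating CD300 genes, Cd300lb, a DAP12-coupled receptor, ran from 316 to 554 CPM in WT (median 391.5) and from 84.5 to 432 CPM in Ifngr1_KO (median 373). The lowest value was that of mouse 7, at 22.8% of its WT level, and the next lowest Ifngr1_KO library was at 315 CPM. The log2 fold change was -0.35 (SE 0.24; edgeR adjusted p = 0.504) with and -0.12 (SE 0.11) without that mouse. Cd300ld, an FcR gamma-coupled receptor, ran from 295 to 537 CPM in WT (median 364) and from 319 to 482 CPM in Ifngr1_KO (median 423). It was higher in 6 of 8 mice, with a log2 fold change of 0.16 (SE 0.11; adjusted p = 0.534), and 0.23 (SE 0.08; adjusted p = 0.204) without mouse 7.

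**Figure D3:**
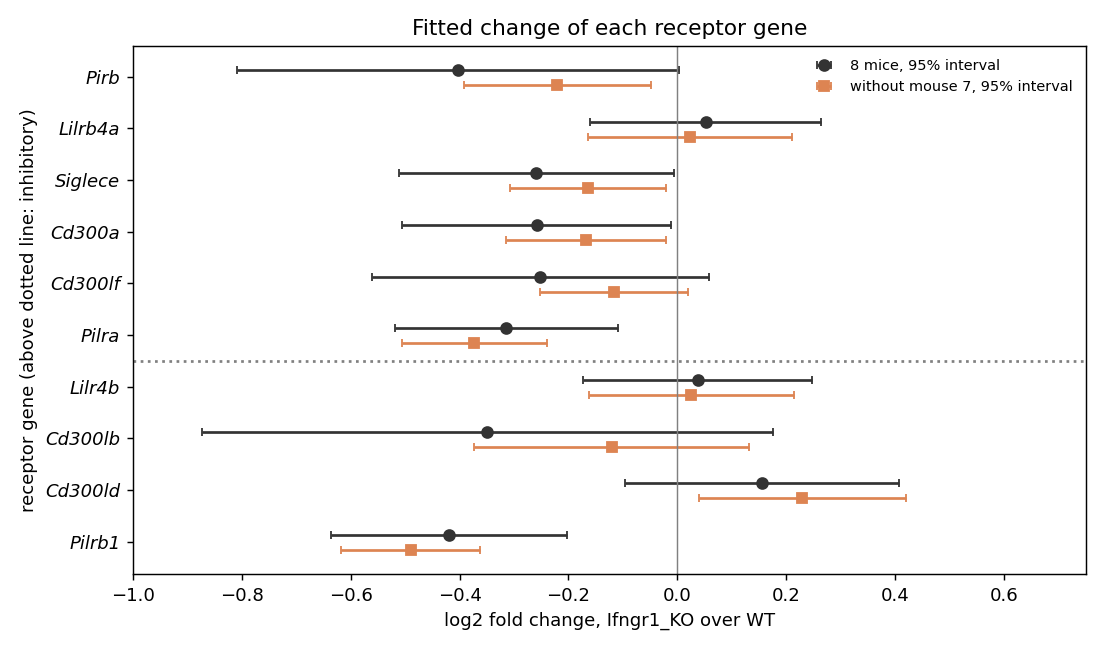
Log2 fold change of each receptor gene, Ifngr1_KO over WT, with its 95% interval from the edgeR fit over 8 mice (black circles) and without mouse 7 (orange squares). Pilra and Pilrb1 lie further below 0 without mouse 7, at -0.37 and -0.49, and Pirb, Siglece, Cd300a, Cd300lf and Cd300lb lie nearer to it.

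The Ifngr1_KO library of mouse 7 split the members. It held the lowest level of all 16 libraries for Pirb, Siglece, Cd300a, Cd300lf and Cd300lb, 5 of 10 members, against 18.9% of all genes tested. These 5 had 22.8% to 53.4% of the WT level of the same mouse. Lilrb4a, Lilr4b, Pilra and Pilrb1 were instead at 119%, 108%, 107% and 105.5% of it, and Cd300ld was at 77.5%. In the same library the phosphatase gene Ptpn6 was also the lowest of its group, at 514 CPM, and the adaptor gene Fcer1g the highest, at 6644 CPM. Its mitochondrial share was the highest measured and its total of 12482326 counts the lowest. The part of these library measures in the values of the members was not tested, apart from fits that leave out mouse 7 or add the mitochondrial share.

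Whether partners changed unequally was asked in 5 pairs, by the difference of their log2 changes within each mouse (TMM-scaled CPM plus 1). Cd300a and Cd300lb were the least alike of these pairs, identical at 66.5% of 642 aligned coding bases. The ratio of Cd300lf to Cd300ld was 3.83 ± 0.690 in WT and 2.89 ± 0.596 in Ifngr1_KO (SD, n = 8) and fell in 7 of 8 mice. The difference was -0.41 ± 0.30 (exact two-sided sign-flip permutation test, p = 0.0156, adjusted p = 0.0586 over 5 pairs), and -0.35 ± 0.25 without mouse 7. The ratio of Pilra to Pilrb1 was 2.25 ± 0.223 in WT and 2.43 ± 0.3003 in Ifngr1_KO and rose in 7 of 8 mice, a difference of 0.10 ± 0.08 (exact sign-flip p = 0.0234, adjusted p = 0.0586). Neither pair passed at a threshold of 0.05, and 8 mice allow no p below 0.00781.

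The other pairs were further from it. Lilrb4a and Lilr4b differed by 0.01 ± 0.12 (exact sign-flip adjusted p = 0.703; -0.0022 without mouse 7), with a ratio of 1.69 ± 0.1195 in WT and 1.71 ± 0.135 in Ifngr1_KO. Cd300a and Cd300lb differed by 0.11 ± 0.60 (exact adjusted p = 0.703), and mouse 7 alone had a ratio of 7.39 in Ifngr1_KO where the WT ratios ran from 1.92 to 3.88. Without mouse 7 the difference was -0.047 ± 0.42. Pirb and Pira2 differed by -0.08 ± 0.23 (exact adjusted p = 0.625), and by -0.14 ± 0.18 without mouse 7. With the counts of Pira2, Lilra6, Gm14548 and Gm15922 of the same locus summed as the partner, a choice made after seeing the data, Pirb fell further by -0.18 ± 0.12. Then 3 of 5 pairs, this one with Cd300lf and Cd300ld and with Pilra and Pilrb1, had an exact adjusted p of 0.0391. The values and unadjusted p of the Cd300lf and Pilra pairs were unchanged. Their adjusted p fell only because the new Pirb value entered the same correction, so it adds nothing for those pairs.

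**Figure D4:**
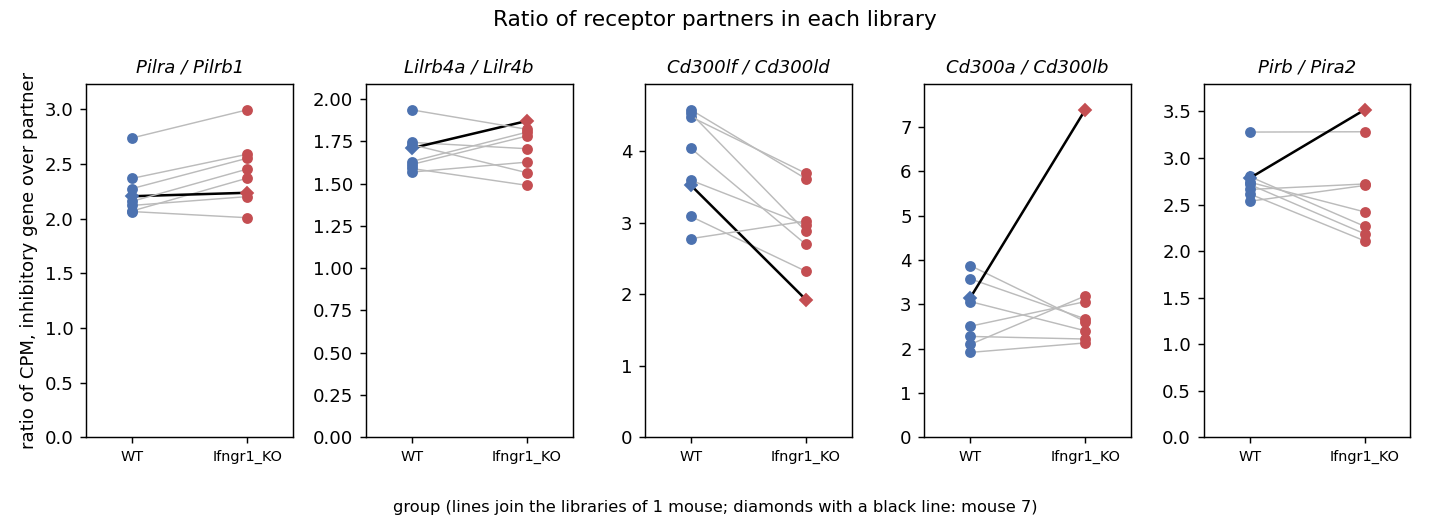
Ratio of TMM-scaled CPM of the inhibitory gene to its partner in each library, by group, with lines joining the 2 libraries of a mouse and mouse 7 as diamonds with a black line. The ratio of Cd300lf to Cd300ld is lower in Ifngr1_KO in 7 of 8 mice, and that of Cd300a to Cd300lb stands out in mouse 7 at 7.39.

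Among 25 tested paired receptors outside the members, 1 was lower and 2 were higher in Ifngr1_KO (background 2.32% and 0.477%). The median log2 fold change was -0.19 (-0.081 without mouse 7). Lair1, an ITIM-bearing receptor for collagen, fell from 227 ± 40.4 to 116 ± 11.4 CPM (SD, n = 8), and its groups did not overlap. On the log2 scale it fell by 0.95 (SE 0.12, edgeR adjusted p = 0.00121), a call that was lost with the mitochondrial share as a covariate (-0.69, adjusted p = 0.0729). Cd300c2, an activating receptor of chromosome 11, rose from 105 ± 11.8 to 162 ± 36.3 CPM (0.60, SE 0.12, edgeR adjusted p = 0.0193). Sirpb1c, of the SIRP-beta family of DAP12-coupled receptors, rose from 57.6 ± 10.1 to 85.1 ± 9.12 CPM (0.57, SE 0.11, adjusted p = 0.0219), but its SIRP-beta relatives are close copies and the call was lost without any 1 of mice 2, 3, 4, 5, 6 or 8 (edgeR adjusted p = 0.0557 to 0.0760). That of Cd300c2 was lost without mouse 6, 8 or 9 (0.0563 to 0.0656).

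The signalling partners of the receptors gave no calls at 8 mice. Of 18 tested ITAM adaptors and kinases 0 were called, with a median log2 fold change of -0.28. Over all genes tested 2.8% were called, so 0 among so few genes lies near that share. Without mouse 7, 2 of the 18 were lower (background 3.34%), singled out here after their values were seen. Lcp2, an adaptor below Syk, had -0.72 (SE 0.19, edgeR adjusted p = 0.0808) with and -0.54 (0.0187) without that mouse, and Pik3ap1, an adaptor of PI3-kinase, -0.90 (SE 0.49, 0.392) and -0.52 (0.0376). Tyrobp, which encodes DAP12, stood at 4023 ± 855 CPM in WT against 4916 ± 1888 CPM in Ifngr1_KO, and Fcer1g, the FcR gamma chain, 2861 ± 538 and 3258 ± 1446 CPM (SD, n = 8). Without mouse 7 the Ifngr1_KO means were 4340.1 CPM for Tyrobp and 2775 CPM for Fcer1g, against 4022 and 2864 CPM in WT, and the log2 fold changes went from 0.23 to 0.11 and from 0.11 to -0.040. Of 12 tested ITIM phosphatases and inhibitory adaptors 0 were called (median 0.093), against the same background of 2.8%. Ptpn6, which encodes SHP-1, had 2224 ± 146 and 1714 ± 535 CPM, with a log2 fold change of -0.46 (SE 0.20) and of -0.26 (SE 0.08, edgeR adjusted p = 0.114) without mouse 7. Dok3, an inhibitory adaptor, had 285 ± 39.9 and 353 ± 42.8 CPM and was higher in 8 of 8 mice (0.31, SE 0.10, edgeR adjusted p = 0.151), and DESeq2 and limma-voom called it (adjusted p = 0.0310 and 0.0470).

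Ligand genes were called where they encode MHC class I heavy chains. Of 12 tested ligand genes 2 were lower and 0 higher (background 2.32% and 0.477%), with a median of -0.27 (-0.13 without mouse 7). H2-K1, whose product Pirb binds, fell from 8833 ± 1189.6 to 2985 ± 546 CPM, and H2-D1 fell from 24230 ± 6143 to 14232 ± 2310.4 CPM (SD, n = 8; log2 fold changes -1.57, SE 0.10, and -0.73, SE 0.11; edgeR adjusted p = 5.7e-06 and 0.00362). Genes of sialic acid synthesis and transfer build the ligands of Siglece and the PILR receptors, and 1 of 12 tested fell (background 2.32%). This was St6galnac4, a sialyltransferase, from 54.0 ± 13.4 to 30.9 ± 9.74 CPM (-0.84, SE 0.17, edgeR adjusted p = 0.0246). That call was lost without any 1 of mice 2, 3, 4, 6, 8 or 9 (0.0586 to 0.0838) and without the mouse block (-0.80, adjusted p = 0.0559).

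Markers of other myeloid cells moved with genotype in part. The summed level of the 7 monocyte markers was 3375 to 5216 CPM in WT and 2747 to 4864 CPM in Ifngr1_KO, and was lower in every mouse (by an exact sign-flip test p = 0.00781, or 0.0781 adjusted over 10 library measures). That of the 10 macrophage and Kupffer cell markers was 1242 to 1892 CPM in WT and 380.1 to 1762 CPM in Ifngr1_KO, with the lowest value in mouse 7. Nearly all of the first sum came from Nr4a1, Ly6c2 and Treml4 and of the second from Csf1r, while Ccr2 and Marco had medians of 0.963 and 0.434 CPM, and Clec4f, Vsig4 and Timd4 of 0. Treml4 is itself a receptor of the wider paired group, so its level counts in both. By the edgeR fit, 1 of 7 tested monocyte markers (Ly6c2) and 1 of 6 macrophage and Kupffer cell markers (Adgre1) were lower. So were 2 of 12 neutrophil markers (Ngp and Ltf), and 0 were higher (background 2.32% lower, 0.477% higher). Whether these transcripts came from other cells or from the sorted neutrophils was not tested, nor was the part of such cells in the values of the receptors. Fewer cells of a type and less RNA per cell cannot be told apart in bulk libraries.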

How the data were processed

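The authors deposited estimated counts as whole numbers, unscaled, with a row for each Ensembl gene and a column for each library. The submitters' processing notes name build mm10, DESeq2 1.22.1 and Salmon 0.14.2, without their roles. Transcript annotation: not given in the sources used here. Per the labels' protocols, libraries came from 1 ng of RNA, oligo-dT priming, a SMART-Seq kit and 13 PCR cycles. Such kits carry no molecular identifiers, so counts include PCR copies and strand is not marked. Names, positions and exon lengths came from GENCODE vM21.

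The fit used edgeR 4.0.16 under R 4.3.3 (filterByExpr, TMM, robust quasi-likelihood F-test, mouse as a block), adjusted by Benjamini-Hochberg over 9851 genes at 0.05. An SE was taken as the absolute log2 fold change divided by the root of F, and intervals are 95%. The block rests on the series text, by which both libraries of a number come from 1 mouse. Deviations from the group means correlated across genes, within a mouse, at 0.0357 to 0.425 (mean 0.176; -0.0233 between mice). The named genes were the members, Ifngr1, near copies, and of each list up to 4 called genes by p, or the 2 with the highest CPM. The members, lists and tests were chosen with earlier results of these data known. Of the Pira genes listed by symbol, Pira2 alone matched the annotation. The fit was tested on simulated counts without differences between mice and with planted changes larger than that of any member. That test does not show how the fit performs at changes of the members' size. Totals of 12482326 to 21725277 counts put each member at 997 counts or more in every library. Alternatives used DESeq2 1.42.0 and limma 3.58.1 (voom), other scalings and filters, no block, a mitochondrial covariate, summed near copies and each mouse left out.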

Additional observations from a re-analysis of the deposited data

Results flagged for a closer look

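Of 71 groups of 8 values checked for a value standing apart (gap to the nearest over the range above 0.526), 11 had one, and chance gives about 1 in 20. In the Ifngr1_KO library of mouse 7, Pirb was at 335 CPM (next lowest 759), Cd300lb at 84.5 (315), Pira2 at 95.1 (314) and Ptpn6 at 514 (1604), while Fcer1g was at 6644 (next highest 3620.4). In that library the summed markers of macrophages and Kupffer cells were at 380.1 CPM (next lowest 1220), and those of dendritic cells at 10.3 and lymphocytes at 51.0 (next highest 3.197 and 25.4). All 8 dendritic cell markers had a median under 1 CPM, as did 4 of 9 lymphocyte markers. The dendritic cell sum thus lies near the floor. Lilr4b was high in the Ifngr1_KO library of mouse 9, at 1028 CPM (next highest 797), as was Dok3 in that of mouse 5, at 447 CPM (369). The mitochondrial share was high in the WT library of mouse 4, at 1.19% (next highest 0.6597%).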

How the results depend on the processing

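Members called higher stayed at 0 in all 18 alternatives, and members called lower, 0 as reported, were 1 with DESeq2 size factors, with at least 10 counts in 8 samples and with summed near copies (also with 4 Pira genes), 2 with DESeq2 and with limma-voom, and 0 to 2 with 1 mouse left out. Without the mouse block 0 members were called (Pilrb1 at -0.41, adjusted p = 0.142), and 216 genes were lower and 52 higher. Over all genes, 229 were lower and 47 higher; the counts were 572 and 488 with DESeq2, 425 and 172 with limma-voom, 85 and 8 with the mitochondrial covariate, 144 to 334 and 19 to 78 with 1 mouse left out, and 102 higher with library totals and 31 with no filter. Library totals shifted the median over all genes from 0.046 to 0.16 (log2), and 7 of 10 members stayed below 0. With the mitochondrial covariate log2 fold changes took the other sign for Pirb (0.063), Lilrb4a (-0.098), Cd300lf (0.013), Lilr4b (-0.12), Cd300lb (0.198), Tyrobp (-0.10), Fcer1g (-0.36), Ptpn6 (0.038) and Pira2 (0.24), none called. Siglece and Cd300a were nearer 0 (-0.047 and -0.051), Pilra and Pilrb1 further below it but not called (-0.41 and -0.53, adjusted p = 0.293 and 0.172), and Lair1 (-0.69, adjusted p = 0.0729), Cd300c2 (0.38, 0.464), Sirpb1c (0.62, 0.227), H2-D1 (-0.70, 0.126) and St6galnac4 (-0.73, 0.426) were not called; the cause was not tested. With 1 mouse left out, Lilr4b was at -0.0074 (without mouse 8) to 0.088 and Fcer1g at -0.040 (without mouse 7) to 0.19. The pair differences ran from -0.0045 to 0.037 for Lilrb4a minus Lilr4b and from -0.047 to 0.21 for Cd300a minus Cd300lb. With the 4 Pira genes as partner, the differences were 0.104 for Pilra minus Pilrb1, -0.41 for Cd300lf minus Cd300ld and -0.18 for Pirb. Ifngr1_KO minus WT sums ran from -0.964 to 0.515 CPM for dendritic cell markers, -1.98 to 22.9 for hepatocyte and endothelium, -4305 to 1734 for neutrophil and -1.92 to 3.902 for lymphocyte markers. No filter also ended the calls of Cd300c2 and Sirpb1c (adjusted p = 0.0709 and 0.127), and library totals that of St6galnac4 (0.0551).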

Other observations

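Of the 25 tested paired receptors outside the members, 15 had a log2 fold change below 0, and those named here were picked after their values were seen. Tarm1, an activating receptor of neutrophils, went from 295 ± 39.9 to 223 ± 36.4 CPM (SD, n = 8), was lower in 8 of 8 mice (log2 fold change -0.41, SE 0.10, edgeR adjusted p = 0.0652) and passed without mouse 7 (-0.42, adjusted p = 0.0369). Trem3, a DAP12-coupled receptor, went from 781 ± 152.5 to 647 ± 114 CPM (-0.27, SE 0.10, adjusted p = 0.199) and also passed without mouse 7 (-0.33, adjusted p = 0.0191). Treml4, also listed as a monocyte marker, had -0.31 (SE 0.11, adjusted p = 0.1798) and Trem1, which amplifies neutrophil activation, -0.22 (SE 0.12, adjusted p = 0.405). Cd33, a sialic acid binding lectin, was lower in 7 of 8 mice (-0.19, SE 0.09, adjusted p = 0.316). Lilra6, of the Pirb locus and outside that list, had -0.12 (SE 0.14, adjusted p = 0.708) with and 0.013 without mouse 7.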
